A study of Mus musculus with 12 samples.

Results

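Mycn-gRNA3 was set against Mycn-gRNA2, the 2 guide RNAs against the Mycn transcript used in this study of mouse E14 embryonic stem cells. The comparison takes 8 of the 12 libraries, chosen by the guide named in the sample titles: 4 with Mycn-gRNA2 and 4 with Mycn-gRNA3, each numbered as replicates 1 to 4. The other 4 libraries carried a non-targeting guide (NT) and are given only as a reference level. All 12 came from cells labelled wild type with a dCas_Alkbh5 construct, a fusion of a Cas protein to the RNA demethylase Alkbh5, so the NT cells carry it too. Cells were kept on gelatin with serum and LIF. They were transfected with 1 µg of a plasmid coding for the guide, held in blasticidin at 8 µg/mL for 3 days and then for 5 days in INK128, which blocks the growth kinase mTOR, at 200 nM. RNA of 200000 cells per sample was extracted, synthetic ERCC RNAs were added, and polyA RNA was sequenced. The labels do not give the guide sequences, their target positions or whether each replicate was its own culture. The p-values therefore measure only the spread between libraries, which may be technical.

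The m6A mark is a methyl group on adenosines of RNA. A METTL3 and METTL14 complex writes it, ALKBH5 and FTO remove it, and YTH-domain proteins read it and often speed the decay of the transcript that carries it. MYCN is a transcription factor of the MYC family that drives growth and ribosome production, and embryonic stem cells express it beside its paralog Myc. Inhibition of mTOR brings these cells into a paused state that resembles embryonic diapause. The comparison of one guide with the other asks how far the transcriptome depends on which Mycn guide was used, since both were given to the same kind of cell in the same way.

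Mycn lies on chromosome 12 (12936093 to 12941836, minus strand, mm10). Its level is given in CPM, the share of the library's endogenous reads times 1000000 with TMM factors, which is relative to the rest of the transcriptome. Mycn stood at 205, 223, 254 and 262 CPM in Mycn-gRNA2 replicates 1 to 4 and at 267, 289, 292 and 257 CPM in Mycn-gRNA3 replicates 1 to 4, against 136 to 146 CPM in NT. The groups overlapped only through Mycn-gRNA3 replicate 4, which lay below Mycn-gRNA2 replicate 4. Mycn-gRNA2 had a mean of 236 ± 26.7 CPM and Mycn-gRNA3 one of 276 ± 16.7 CPM (SD, n = 4 each). The log2 difference was 0.23 (SE 0.09), which edgeR's quasi-likelihood test did not call after Benjamini-Hochberg adjustment (adjusted p = 0.732, or 0.542 with the replicate number as a block). An exact two-sided permutation test of log2 CPM gave p = 0.0571, where 0.0286 is the smallest that 4 against 4 allow. In 3 of 4 same-numbered pairs Mycn was higher with Mycn-gRNA3. Within replicates 1 and 2 the log2 difference was 0.36 and within replicates 3 and 4 it was 0.09. With an offset for the GC content of genes in each library it was 0.12 (edgeR unadjusted p = 0.0889, against 0.0307 without the offset).

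Equal numbers of cells were extracted, so levels per ERCC read are levels per cell if cell counting and RNA yield were equal, which was not checked. In bulk RNA, fewer cells of a type and less RNA per cell cannot be told apart. Per 1000 ERCC reads, the mean of Mycn was 19.3 ± 4.74 for Mycn-gRNA2 and 25.3 ± 2.95 for Mycn-gRNA3 (SD, n = 4 each), with an exact permutation p of 0.0571. All endogenous reads together stood at 85.0, 65.6, 81.6 and 95.6 per ERCC read in Mycn-gRNA2 replicates 1 to 4 and at 93.2, 90.1, 94.5 and 83.0 in Mycn-gRNA3 replicates 1 to 4. The Mycn-gRNA3 libraries lay inside the range of the Mycn-gRNA2 libraries. Their log2 difference was 0.15 (SE 0.121, exact permutation p = 0.314), and it was 0.17 without reads on Rn45s, the ribosomal RNA precursor. Rn45s took 8.35% to 12.5% of the endogenous reads of the 8 libraries.

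**Figure D1:**
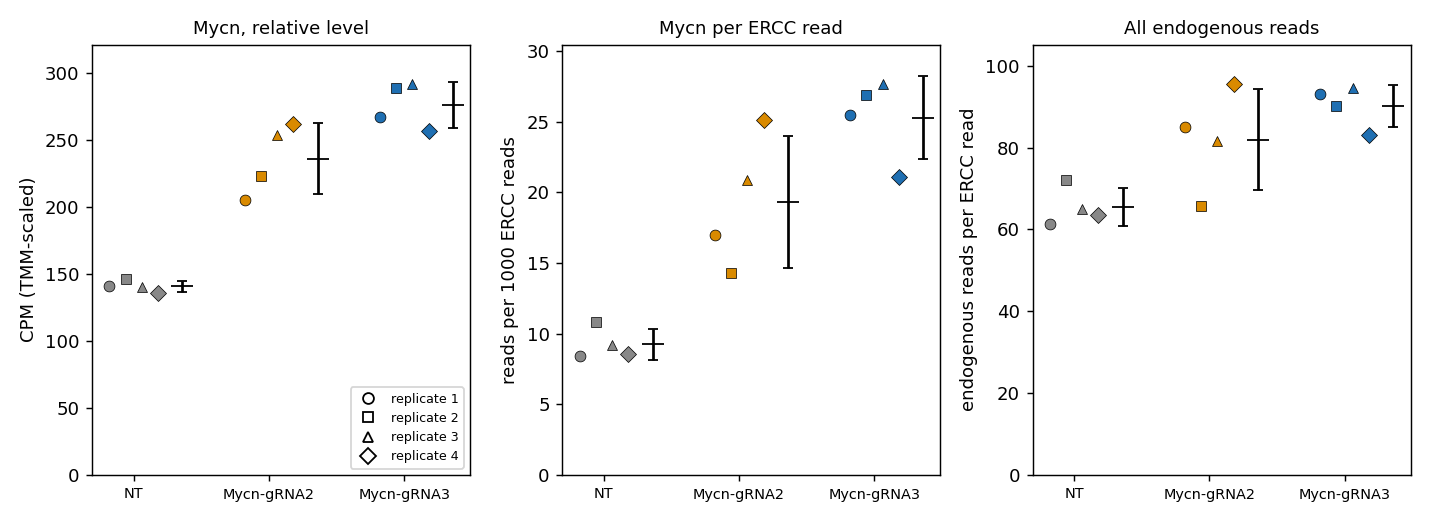
Mycn in CPM, Mycn per 1000 ERCC reads and all endogenous reads per ERCC read, 1 point per library (shape gives the replicate number), with mean and SD beside each group of 4. In the Mycn panels, every guide library lies above every NT library, and the spread is wider with Mycn-gRNA2 (SD 26.7 CPM) than with Mycn-gRNA3 (SD 16.7 CPM).

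The paralog Myc stood at 121, 122, 123 and 137 CPM with Mycn-gRNA2 and at 94.3, 107, 156 and 148 CPM with Mycn-gRNA3. Its Mycn-gRNA3 libraries of replicates 1 and 2 were below all Mycn-gRNA2 libraries and those of replicates 3 and 4 above them, so the log2 difference over all 8 was 0.01 (SE 0.15) and changes sign under other scalings. Alkbh5, whose reads include those of any fusion transcript that shares its sequence, stood at 86.0 to 101 CPM with Mycn-gRNA2 and at 95.1 to 108 CPM with Mycn-gRNA3. Its log2 difference was 0.09 (SE 0.08, edgeR adjusted p = 0.74), or 0.05 without Mycn-gRNA2 replicate 1.

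The 8 libraries held 17248564 to 33819855 endogenous reads. Mycn-gRNA2 replicate 1 stood apart from the rest. Over the 9487 genes whose mean log2 CPM was above 3, each library was set against the mean of the rest of its group. The median distance was 0.261 (log2) for Mycn-gRNA2 replicate 1, with 186 genes over 2-fold. For the other 7 guide libraries it was 0.0508 to 0.144, with 1 to 26 such genes. The deviations of Mycn-gRNA2 replicate 1 followed GC content, from 0.13 in the 20% of genes with the lowest GC to -0.27 in the 20% with the highest. Mycn-gRNA2 replicate 4 ran the other way, from -0.11 to 0.17, and the Mycn-gRNA3 libraries stayed between -0.0303 and 0.0333. The median log2 difference of Mycn-gRNA3 over Mycn-gRNA2 was -0.12 in the lowest GC class and 0.15 in the highest, and -0.01 in both with an offset for GC per library. That offset was fitted to this same trend, so medians near 0 follow from the fit. It would also remove any guide difference that runs with GC. Of 73 genes refitted for the text, the log2 difference of 25 moved by over 1.5 times with GC offsets, an alternative chosen after seeing the data, and that of 27 without Mycn-gRNA2 replicate 1. For most genes described below, such values are given beside the result. Over genes by length the median went from 0.08 in the shortest 20% to -0.09 in the longest 20%, and from 0.05 to -0.06 with GC offsets.

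The embryonic stem cell markers Pou5f1, Sox2 and Nanog summed to 1400 to 1890 CPM with Mycn-gRNA2 and 1930 to 2050 CPM with Mycn-gRNA3. These groups did not overlap. Pou5f1 alone stood at 521 CPM in Mycn-gRNA2 replicate 1, against 857 to 920 in the other 3 and 927 to 984 with Mycn-gRNA3, a log2 difference of 0.26 that was 0.10 without that library. Summed markers of primitive endoderm, fibroblasts, muscle, neural cells, trophoblast, mesendoderm and blood overlapped between the guides in each case. Of the fibroblast list, 8 of 18 genes, among them Col1a2 and Postn, stayed below 1 CPM in all 8 libraries, as did Ptprc and the globin Hba-a1 of the blood list. Y-linked genes summed to 32.5 to 83.9 CPM with Mycn-gRNA2 and 46.2 to 63.6 CPM with Mycn-gRNA3, against 0.0448 to 0.181 CPM in NT. The guides overlapped on these genes, and NT lay far below both, so a difference of culture between NT and guide cells cannot be told apart from one of the guides. The part of these markers in the results was not tested.

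No gene was called between the guides. Of 14383 genes tested with edgeR's quasi-likelihood test, 0 were higher and 0 lower with Mycn-gRNA3 at an adjusted p under 0.05 (0.0% called). At an unadjusted p under 0.05 there were 378 higher (2.63%) and 294 lower (2.04%) genes, 4.67% of those tested. With the replicate number as a block, 0 genes were called as well (0.0% called), with 763 higher (5.3%) and 411 lower (2.86%) at an unadjusted p under 0.05, or 8.16% in all. The smallest adjusted p was 0.622 without and 0.286 with the block. DESeq2 called 2 genes, Rhox5 and Cdkn1c, both higher with Mycn-gRNA3 (0.0139% called), and limma-voom called 0 (0.0% called), with 679 genes at an unadjusted p under 0.05 (4.72%).

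The intervals bound most differences. Without the block, the 95% interval of the log2 difference lay within 1.5-fold either way for 10445 genes (72.6%) and within 2-fold for 13743 (95.6%). Among genes with a mean log2 CPM above 3, the shares were 89.6% and 99.1%. The estimate itself reached 2-fold for 13 genes. Of these, 9 were lower with Mycn-gRNA3, and all 9 were highest in Mycn-gRNA2 replicate 1. The predicted gene Gm6402, for example, stood at 50.3, 7.51, 13.1 and 8.95 CPM with Mycn-gRNA2 and at 7.25 to 8.43 CPM with Mycn-gRNA3. For 344 genes (2.39%) the 4 Mycn-gRNA3 libraries all lay above the 4 Mycn-gRNA2 libraries, and for 247 (1.72%) all below. By same-numbered pairs, 1485 genes (10.3%) were higher with Mycn-gRNA3 in each pair and 1190 (8.27%) lower.

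**Figure D2:**
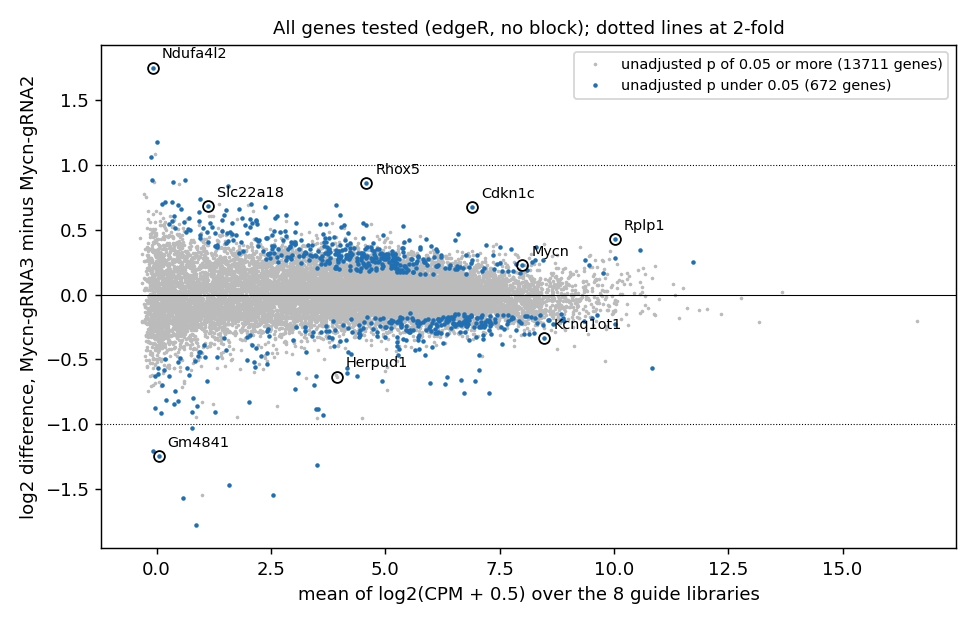
Each gene tested, by its mean log2(CPM + 0.5) over the 8 guide libraries and its log2 difference of Mycn-gRNA3 minus Mycn-gRNA2, with genes at an unadjusted p under 0.05 in blue and dotted lines at 2-fold. Rhox5 (0.86) and Cdkn1c (0.67) stand above genes of like level, and none of the points passed adjustment in edgeR.

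The genes named next had the lowest unadjusted p in each direction, and none changed by the edgeR test. Rhox5 had the lowest of all. It lies on chromosome X (37754608 to 37808878) and encodes a homeobox protein of the reproductive Rhox cluster, whose transcription in embryonic stem cells is held down by DNA methylation. Rhox5 stood at 14.5, 19.1, 16.7 and 19.7 CPM with Mycn-gRNA2 and at 28.1, 28.3, 37.1 and 33.6 CPM with Mycn-gRNA3. The groups did not overlap. The log2 difference was 0.86 (SE 0.13, edgeR adjusted p = 0.622) without and 0.86 (adjusted p = 0.286) with the block. It was 0.78 without Mycn-gRNA2 replicate 1 and 0.82 with GC offsets, and DESeq2 called it (adjusted p = 1.76e-05). NT stood at 33.2, 32.5, 27.3 and 23.0 CPM. In the fit of all 12 libraries the log2 difference of Rhox5 from NT was -0.73 with Mycn-gRNA2 (edgeR adjusted p = 0.00272) and 0.13 with Mycn-gRNA3 (adjusted p = 0.48). These comparisons share the NT libraries, which differ from both guides in Y-linked genes. Of the other 4 genes tested within 500000 bases of Rhox5, among them Rhox6, Rhox8 and Rhox9, all had estimates below 0 and none had an unadjusted p under 0.05.

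Cdkn1c, which encodes the CDK inhibitor p57, was next. It lies on chromosome 7 (143458339 to 143461050) in the imprinted domain of Kcnq1ot1, where a long noncoding RNA transcribed from the paternal allele silences neighbouring genes on that allele. Cdkn1c stood at 78.4, 93.2, 94.9 and 111 CPM with Mycn-gRNA2 and at 132, 136, 183 and 151 CPM with Mycn-gRNA3. The groups did not overlap. The log2 difference was 0.67 (SE 0.13, edgeR adjusted p = 0.732), or 0.67 with the block (adjusted p = 0.286), 0.59 without Mycn-gRNA2 replicate 1 and 0.48 with GC offsets. DESeq2 called it (adjusted p = 0.0155). The NT libraries themselves split by replicate number, at 162 and 178 CPM in replicates 1 and 2 and at 62.3 and 60.8 CPM in replicates 3 and 4, a range wider than the difference between the guides.

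Neighbours of Cdkn1c in that domain were looked at because of this result. Of 16 genes tested within 500000 bases, 3 had an unadjusted p under 0.05 and a higher estimate, namely Cdkn1c itself, Slc22a18 and Ascl2, and 1, Kcnq1ot1, had a lower one. Over all genes, 2.63% were higher and 2.04% lower at that p. Slc22a18, a membrane transporter gene expressed from the maternal allele, stood at 1.22, 1.25, 1.34 and 1.47 CPM with Mycn-gRNA2 and at 2.38, 2.40, 2.17 and 1.59 CPM with Mycn-gRNA3, without overlap (log2 difference 0.68, SE 0.18). Ascl2, a transcription factor gene of trophoblast and stem cells, stood at 1.04 to 1.35 CPM against 1.41 to 2.06 CPM, again without overlap (0.46, SE 0.18). With GC offsets the difference of Ascl2 was 0.26 (edgeR unadjusted p = 0.222).

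Kcnq1ot1 stood at 478, 448, 392 and 299 CPM with Mycn-gRNA2 and at 312, 316, 309 and 342 CPM with Mycn-gRNA3 (log2 difference -0.34, SE 0.13). Mycn-gRNA2 replicate 4 was the lowest of the 8, so these groups overlapped, and the difference was -0.25 without Mycn-gRNA2 replicate 1 and -0.21 with GC offsets. It lies antisense to Kcnq1, and no source used here gives the strand setting of the counting, so reads of the pair cannot be told apart. Of the 16 genes, 12 had a higher estimate, with a median of 0.13, and both values include Cdkn1c, on which the window was centred. The estimate was higher for 7079 of all 14383 genes tested, with a median of -0.0033. Among genes with a mean log2 CPM above 3, the highest GC class had a median of 0.15. A median of the 16 with GC offsets was not taken, and the part of GC content in their median was not tested. With the replicate block, Tssc4 and the sterol reductase gene Dhcr7 (0.19) also had an unadjusted p under 0.05 and a higher estimate. Of all genes, 5.3% were higher and 2.86% lower at that p with the block. With GC offsets and the block, Dhcr7 was 0.12 (edgeR unadjusted p = 0.109). Nadsyn1, which encodes NAD synthetase, stood at 4.13 to 4.47 CPM with Mycn-gRNA2 and 4.49 to 5.73 CPM with Mycn-gRNA3, without overlap. Of all genes, 2.39% were separated in that direction. The difference of Nadsyn1 was 0.21 (SE 0.12, edgeR unadjusted p = 0.1045), or 0.14 with GC offsets. Nap1l4, a histone chaperone gene at the edge of the domain, differed by 0.03 (SE 0.06), and Cars, a tRNA synthetase gene, by -0.02 (SE 0.12). Tssc4 stood at 15.7, 22.5, 27.5 and 33.3 CPM with Mycn-gRNA2 and at 30.9 to 32.5 CPM with Mycn-gRNA3 (0.37, SE 0.18), its lowest value being in Mycn-gRNA2 replicate 1. The difference of Tssc4 was 0.20 without that library and 0.20 with GC offsets.

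DNA methylation, named above for Rhox5, acts on CG dinucleotides. The 250 bases before the RefSeq start are shown for Rhox5, Kcnq1ot1, Slc22a18 and Ascl2, 5′ to 3′ on the gene's strand, with each CG in capitals. These are the genes with an entry (4 of 5 looked up, GRCm38.p6), and Cdkn1c had none. Whether CG in these windows bears on the levels of these genes was not tested. Methylation was not measured here, and the sequences are a description of these windows.
Rhox5, chrX:37754358-37754607, plus strand: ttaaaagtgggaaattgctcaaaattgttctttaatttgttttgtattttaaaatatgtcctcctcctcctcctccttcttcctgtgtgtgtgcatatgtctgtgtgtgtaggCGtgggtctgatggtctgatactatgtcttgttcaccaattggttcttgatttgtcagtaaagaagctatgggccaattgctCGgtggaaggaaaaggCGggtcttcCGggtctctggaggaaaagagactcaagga
Kcnq1ot1, chr7:143296548-143296797, minus strand: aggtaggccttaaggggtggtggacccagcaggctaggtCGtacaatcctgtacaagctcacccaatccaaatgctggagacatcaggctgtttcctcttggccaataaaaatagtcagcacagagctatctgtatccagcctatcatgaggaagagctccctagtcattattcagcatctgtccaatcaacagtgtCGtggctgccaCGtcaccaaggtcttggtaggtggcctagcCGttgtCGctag
Slc22a18, chr7:143473539-143473788, plus strand: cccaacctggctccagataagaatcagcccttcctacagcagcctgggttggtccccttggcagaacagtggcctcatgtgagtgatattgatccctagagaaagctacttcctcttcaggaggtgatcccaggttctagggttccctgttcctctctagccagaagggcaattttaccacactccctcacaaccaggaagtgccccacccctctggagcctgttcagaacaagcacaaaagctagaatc
Ascl2, chr7:142969265-142969514, minus strand: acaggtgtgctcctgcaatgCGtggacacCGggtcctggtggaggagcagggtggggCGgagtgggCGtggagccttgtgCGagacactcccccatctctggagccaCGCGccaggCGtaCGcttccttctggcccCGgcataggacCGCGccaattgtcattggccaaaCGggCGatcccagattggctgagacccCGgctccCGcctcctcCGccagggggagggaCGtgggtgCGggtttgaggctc
The windows hold 4, 5, 0 and 19 CG. Of 32851 RefSeq promoter windows of the same length, 92.1% hold at least 1 CG and the median is 6. CG reads the same on both strands. The window of Ascl2 is thus among the 19.7% with 19 or more, and that of Slc22a18 among the 7.87% with none.

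**Figure D3:**
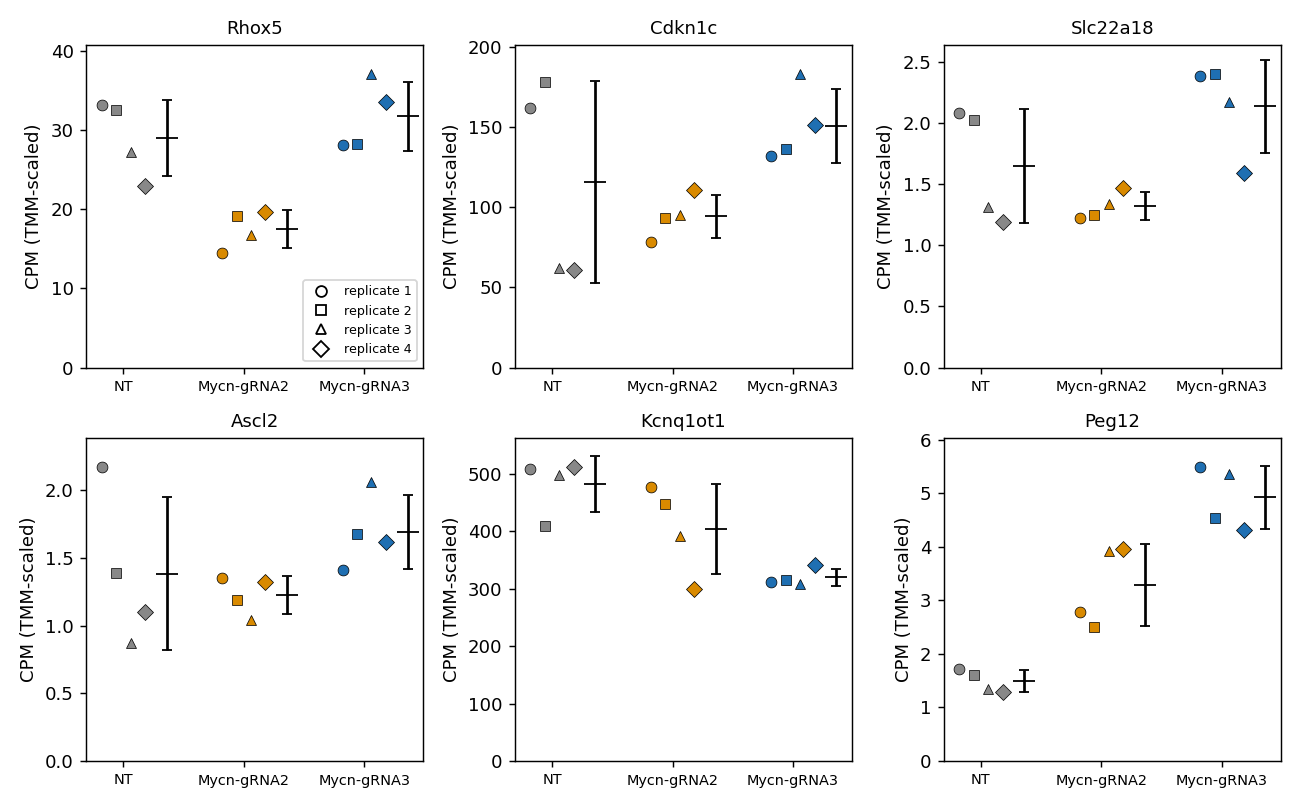
CPM of Rhox5 and 5 imprinted genes in each library (shape gives the replicate number), with mean and SD beside each group of 4. Rhox5, Cdkn1c, Slc22a18, Ascl2 and Peg12 do not overlap between the guides, Kcnq1ot1 does, and the NT libraries of Cdkn1c lie at 162 and 178 CPM in replicates 1 and 2 but at 62.3 and 60.8 CPM in replicates 3 and 4.

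Over the whole list of imprinted genes, 33 were tested and the median log2 difference was -0.02, against -0.0033 over all genes. At an unadjusted p under 0.05 there were 4 higher members (Peg12, Cdkn1c, Slc22a18 and Ascl2) and 1 lower (Kcnq1ot1), where 2.63% and 2.04% of all genes were. With the block there were 4 higher and 3 lower, where 5.3% and 2.86% of all genes were. Without Mycn-gRNA2 replicate 1 the counts were 4 and 0, where 2.73% of all genes were higher and 1.58% lower. With GC offsets they were 3 and 0, where the shares were 1.3% and 1.29%. Peg12, a paternally expressed gene of another imprinted domain on chromosome 7, stood at 2.50 to 3.96 CPM with Mycn-gRNA2 and 4.31 to 5.49 CPM with Mycn-gRNA3 (0.57, SE 0.18). NT stood at 1.27 to 1.71 CPM for Peg12, below all guide libraries.

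The other genes with the lowest unadjusted p toward Mycn-gRNA3 were Cmtr1, Shf, Rcsd1, Bnipl, Mfsd3, Gusb, R3hdml, Ndufa4l2 and 1700023F06Rik. The log2 difference of Shf was 0.44, or 0.15 with GC offsets. Rcsd1 (1.06, SE 0.28) rests on 25 reads over the 4 Mycn-gRNA2 libraries and 66 over the 4 Mycn-gRNA3 libraries. Cmtr1, which encodes the enzyme that methylates the ribose of the first transcribed base at the mRNA cap, stood at 1.96 to 2.83 CPM with Mycn-gRNA2 and 3.32 to 3.99 CPM with Mycn-gRNA3 (log2 difference 0.66, SE 0.15). Gusb, the lysosomal beta-glucuronidase, stood at 15.1 to 18.0 against 19.2 to 21.7 CPM (0.31, SE 0.09). Neither pair of ranges overlapped. Ndufa4l2, a hypoxia-inducible mitochondrial gene, had the highest estimate of the 14383 genes tested (1.75, SE 0.50) at 20 reads over the 4 Mycn-gRNA2 libraries and 88 over the 4 Mycn-gRNA3 libraries. Its highest Mycn-gRNA2 value, 0.536 CPM in replicate 2, lay above Mycn-gRNA3 replicate 1 at 0.323.

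Toward Mycn-gRNA2 the lowest p belonged to Gm4841, Arhgap20, Stox2, Nfat5, Cript, Mamld1, Cnksr2, Gm14393, Xpr1, 4930512M02Rik, Zhx1 and Ccng1. Nfat5, the transcription factor of the osmotic stress response, stood at 223, 211, 226 and 189 CPM with Mycn-gRNA2 and 168, 184, 172 and 183 CPM with Mycn-gRNA3 (-0.26, SE 0.08). These ranges did not overlap, and the difference was -0.17 with GC offsets. Xpr1, the phosphate exporter, stood at 45.8 to 58.4 against 39.1 to 43.5 CPM (-0.29, SE 0.09). Ccng1, a p53 target that encodes cyclin G1, stood at 174, 135, 171 and 145 against 112, 134, 135 and 122 CPM (-0.31, SE 0.10; -0.19 with GC offsets).

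With the replicate number as a block, Rhox5 and Cdkn1c again had the lowest p toward Mycn-gRNA3, followed by Nkx6-3, Ndufa4l2, Sox3, Mrc2, Tuba3a, Cecr6, Cmtr1, Rplp1, Pfkl and Mt2. The block matters for genes that move with the replicate number. Sox3, a SOX factor of early neural and epiblast cells, stood at 1.56, 2.50, 3.84 and 5.25 CPM with Mycn-gRNA2 and at 2.90, 3.24, 7.53 and 7.06 CPM with Mycn-gRNA3. The groups overlapped, yet each pair was higher with Mycn-gRNA3. The log2 difference was 0.65 with an SE of 0.40 without the block and 0.66 with an unadjusted p of 0.00186 with it (edgeR). It was 0.38 with GC offsets (0.39 with the block as well) and 0.41 without Mycn-gRNA2 replicate 1. Mt2, a metallothionein that binds zinc, stood at 117, 62.9, 80.2 and 111 against 140, 88.1, 119 and 120 CPM, also higher in each pair (log2 difference 0.33, or 0.19 with GC offsets).

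Toward Mycn-gRNA2 the block gave Gm4841, 4930470H14Rik, Olfr856-ps1, A130077B15Rik, Gm17821, Olfr613, Grk1, Herpud1, Zfp488, 6530403H02Rik, Zeb2 and Vmn1r58. All of these except Herpud1 were highest in Mycn-gRNA2 replicate 1. Gm17821, for example, stood at 354 CPM there, at 138 to 178 CPM in the other 3 Mycn-gRNA2 libraries and at 109 to 140 CPM with Mycn-gRNA3, and its log2 difference went from -0.76 to -0.37 without that library. Over the 11 genes that are highest there, the differences without it ranged from -0.96 to -0.33. Olfr613 and Olfr856-ps1 belong to the olfactory receptor family and Vmn1r58 to the vomeronasal receptors, multigene families of sensory neurons in which reads can be shared between copies, so their values are uncertain.

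The gene groups were described by counts and medians, with no test of a group. Of the 858 list members tested, edgeR called 0 with or without the block, while DESeq2 called Cdkn1c. Cytosolic ribosomal proteins had the highest median of the lists, 0.15 over 79 genes against -0.0033 over all genes. Their estimates were higher with Mycn-gRNA3 for 64 and lower for 15. At an unadjusted p under 0.05, 9 were higher and 0 lower, where 2.63% of all genes were higher and 2.04% lower. With the block the counts were 28 and 0, where the shares were 5.3% and 2.86%. Rps29 stood at 223, 261, 282 and 344 CPM with Mycn-gRNA2 and 352, 355, 383 and 344 CPM with Mycn-gRNA3 (log2 difference 0.37, SE 0.12). Rps16 stood at 500 to 704 against 703 to 762 CPM (0.27, SE 0.10) and Rpl13a at 764 to 1100 against 1130 to 1180 CPM (0.28, SE 0.10). In all of these the lowest library was Mycn-gRNA2 replicate 1. Without it the median of the group was 0.09 with 10 higher and 0 lower, and with GC offsets 0.10 with 8 and 0. Of all genes, 2.73% were higher without that library and 1.3% with GC offsets.

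Oxidative phosphorylation had a median of 0.13 over 54 genes, with 43 estimates higher. At an unadjusted p under 0.05, 2 were higher, Ndufa3 of complex I (0.31, SE 0.11) and Cox4i1 of complex IV (0.27, SE 0.11; 0.11 with GC offsets), and 0 lower. Over all genes 2.63% were higher and 2.04% lower at that p. With the block 14 of the group were higher and 1 lower, where 5.3% and 2.86% of all genes were. The median was 0.06 without Mycn-gRNA2 replicate 1 and 0.10 with GC offsets. Glycolysis and hypoxia genes had a median of 0.11 over 32, with 2 higher at an unadjusted p under 0.05, the phosphofructokinase subunits Pfkl (0.47, SE 0.20) and Pfkm (0.26, SE 0.08; 0.16 with GC offsets). The share of all genes higher at that p was 2.63%. Pfkl stood at 47.9 CPM in Mycn-gRNA2 replicate 1, at 84.3 to 103 in the other 3 and at 101 to 133 CPM with Mycn-gRNA3. Without that library the difference of Pfkl was 0.28 and the group's median 0.03.

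Genes of MYC function lay closer to the median of all genes. Known MYC target genes had a median of 0.06 over 67, with 1 higher at an unadjusted p under 0.05, the exosome subunit Exosc5 (0.25, SE 0.11; 0.14 without Mycn-gRNA2 replicate 1). That median was -0.02 without Mycn-gRNA2 replicate 1 and -0.0009 with GC offsets. Ribosome biogenesis had a median of -0.02 over 60 genes and translation factors 0.03 over 44. Of the 18 genes tested in the neighbourhood of Mycn on chromosome 12, only Mycn and the kinase gene Rock2 (-0.25, SE 0.09; -0.14 with GC offsets) had an unadjusted p under 0.05. Of all genes, 2.63% were higher and 2.04% lower at that p.

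The m6A machinery held 21 tested genes with a median of -0.04. Pcif1, which adds the further methyl group to an adenosine next to the cap, stood at 37.0, 41.3, 41.7 and 46.8 CPM with Mycn-gRNA2 and 54.8, 51.5, 45.7 and 44.9 CPM with Mycn-gRNA3 (0.24, SE 0.10). Ythdc2, a YTH-domain helicase, stood at 35.1 to 38.4 against 29.7 to 34.1 CPM without overlap (-0.21, SE 0.07). Igf2bp2, an RNA-binding protein that recognises m6A, stood at 114, 59.8, 89.2 and 87.0 against 63.3 to 69.9 CPM (-0.37, SE 0.16). These were the members with an unadjusted p under 0.05, 1 higher and 2 lower, where 2.63% and 2.04% of all genes were. With GC offsets the difference of Pcif1 was 0.10 and that of Ythdc2 -0.11. Without Mycn-gRNA2 replicate 1 that of Igf2bp2 was -0.22, and 1 member was lower in place of 2, where 1.58% of all genes were.

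Endoplasmic reticulum stress genes leaned the other way. The median was -0.14 over 22 genes, with 20 estimates lower with Mycn-gRNA3 and 2 higher. At an unadjusted p under 0.05, 2 were lower, the chaperone cofactor Dnajb9 (-0.46, SE 0.17) and the stress sensor Atf6 (-0.24, SE 0.10), and 0 higher. Over all genes 2.04% were lower at that p. With the block 4 were lower, where 2.86% of all genes were. Dnajb9 was highest in Mycn-gRNA2 replicate 1, without which its difference was -0.23 and that of Atf6 -0.13. Hsp90b1, the chaperone GRP94, stood at 679, 750, 956 and 900 CPM with Mycn-gRNA2 and 561, 694, 757 and 773 CPM with Mycn-gRNA3, lower in each pair (-0.24, SE 0.13; -0.15 with GC offsets). The group's median was -0.21 with 4 lower without Mycn-gRNA2 replicate 1, where 1.58% of all genes were lower, and -0.15 with GC offsets. Per ERCC read it was 0.01, on a scale where the median of all genes was 0.17. It was -0.03 in replicates 1 and 2 and -0.19 in replicates 3 and 4.

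Replication-dependent histones had a median of -0.17 over 30 genes, with 29 estimates lower, and 0.07 without Mycn-gRNA2 replicate 1, so their direction rested on that library. Formative and primed epiblast genes had a median of 0.11 over 17 (0.03 without it), with Foxd3 (0.27, SE 0.12) and Nodal (0.27, SE 0.12) at an unadjusted p under 0.05. Of all genes, 2.63% were higher at that p. The sign of Foxd3 turned with GC offsets (-0.03), and Nodal was 0.16 with them. Naive pluripotency genes had a median of -0.04 over 20. Among them Klf2, a Kruppel-like factor of the naive state, stood at 160, 157, 150 and 179 CPM with Mycn-gRNA2 and 251, 221, 186 and 174 CPM with Mycn-gRNA3 (0.37, SE 0.12; 0.11 with GC offsets). The p53 targets and CDK inhibitors, over 26 tested, had 2 higher members, Cdkn1c and Cdkn2d (0.32, SE 0.13), where 2.63% of all genes were higher. They had 3 lower, Mdm2 (-0.19, SE 0.08), Ccng1 and Trp53inp1 (-0.16, SE 0.06), where 2.04% of all genes were lower. With GC offsets the counts were 1 and 0, where 1.3% and 1.29% of all genes were. Cdkn2d was then 0.20 and Trp53inp1 -0.03. Mdm2 was -0.13 without Mycn-gRNA2 replicate 1.

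**Figure D4:**
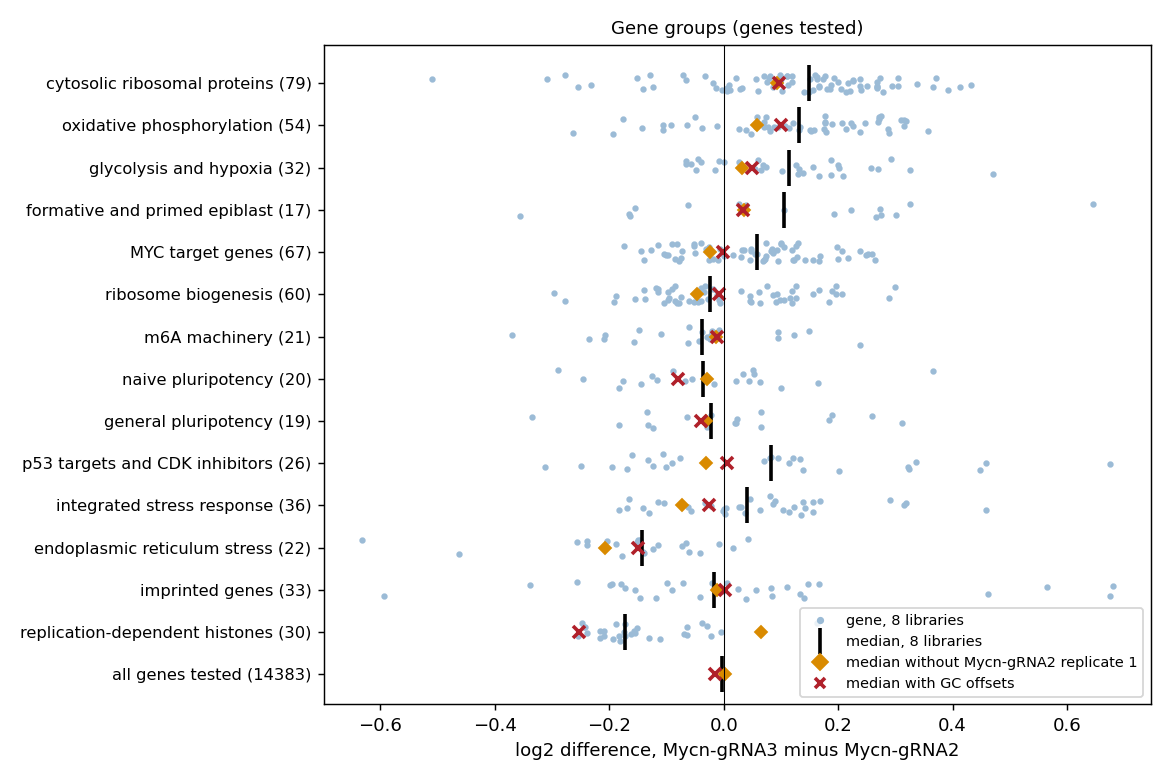
Log2 difference of Mycn-gRNA3 minus Mycn-gRNA2 for the tested genes of 14 lists, with the number tested in brackets, the median over 8 libraries (bar), without Mycn-gRNA2 replicate 1 (diamond) and with GC offsets (cross). Ribosomal proteins (median 0.15) and endoplasmic reticulum stress genes (-0.14) keep their side of 0 in all 3, and histones move from -0.17 to 0.07 without that library.

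The comparison was next made by replicate number, since several genes above differed between replicates 1 and 2 and replicates 3 and 4. In replicates 3 and 4 alone, with 2 libraries a guide, edgeR called 17 of 14543 genes (0.117% called), 5 higher and 12 lower with Mycn-gRNA3. In replicates 1 and 2 alone it called 0 of 14364 (0.0% called), with 583 at an unadjusted p under 0.05 (4.06%). The 5 that rose in replicates 3 and 4 were Rhox5 (0.95), Cdkn1c (0.70), Ndufa4l2 (2.46), the pluripotency gene Dppa5a (0.38) and the oxygen-sensing hydroxylase gene Egln3 (0.73). The 12 that fell included 2 genes of the endoplasmic reticulum stress response, Herpud1 (-0.83, adjusted p = 3.34e-05) and the chaperone Hspa5 (-0.36, adjusted p = 0.0311). The others were Mme, Nrp2, Mfap3l, Phlda1, Igf2bp2, Samd9l, Ddit4l, Lrrc8c, Cdh2 and Hs6st2.

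Of these 17 genes, 11 had an estimate of the same direction in replicates 1 and 2, and 2 of the 11 an unadjusted p under 0.05. The other 6 had the opposite direction: Ddit4l, Lrrc8c, Cdh2, Hs6st2, Egln3 and Hspa5, 3 of them with an unadjusted p under 0.05. Lrrc8c, a subunit of volume-regulated anion channels, stood at 9.78, 9.29, 21.6 and 21.5 CPM with Mycn-gRNA2 and at 20.4, 19.5, 12.0 and 10.6 CPM with Mycn-gRNA3. Ddit4l, a stress-induced inhibitor of mTOR signalling, stood at 5.52, 4.77, 11.2 and 10.6 against 9.00, 8.82, 4.81 and 4.25 CPM. Hs6st2, a heparan sulfate sulfotransferase, stood at 3.30, 3.99, 8.93 and 9.81 against 7.79, 7.32, 4.67 and 4.91 CPM. In all 3 the high libraries were replicates 3 and 4 of Mycn-gRNA2 and replicates 1 and 2 of Mycn-gRNA3, so the guides crossed with the replicate number.

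That crossing was tested with a term for the guide difference in replicates 3 and 4 minus that in replicates 1 and 2, a fit chosen after seeing the data. It called 2 of 14383 genes (0.0139% called, with 388 or 2.7% at an unadjusted p under 0.05), Lrrc8c at -2.0 (SE 0.18, edgeR adjusted p = 0.0219) and Ddit4l at -2.06 (SE 0.22, adjusted p = 0.0476). Hs6st2 missed the threshold (adjusted p = 0.056). NT stood at 7.04 to 10.8 CPM for Lrrc8c and 2.57 to 4.09 CPM for Ddit4l. Over all 8 libraries Lrrc8c thus showed a difference of -0.01 (SE 0.32), while replicates 1 and 2 differed by 1.05 and replicates 3 and 4 by -0.94. For Rhox5 and Cdkn1c the term was 0.20 and 0.06, with unadjusted p of 0.374 and 0.779. Labels do not say what distinguishes replicates 1 and 2 from 3 and 4, so a batch of culture, extraction or sequencing cannot be named. Whether the guide labels of a pair of replicate numbers were exchanged was not tested. Rhox5 and Cdkn1c were higher in the library labelled Mycn-gRNA3 in each of the 4 pairs, as were 10.3% of all genes, with 8.27% lower. Both were named for their low p in that same comparison, so their direction says nothing about such an exchange.

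**Figure D5:**
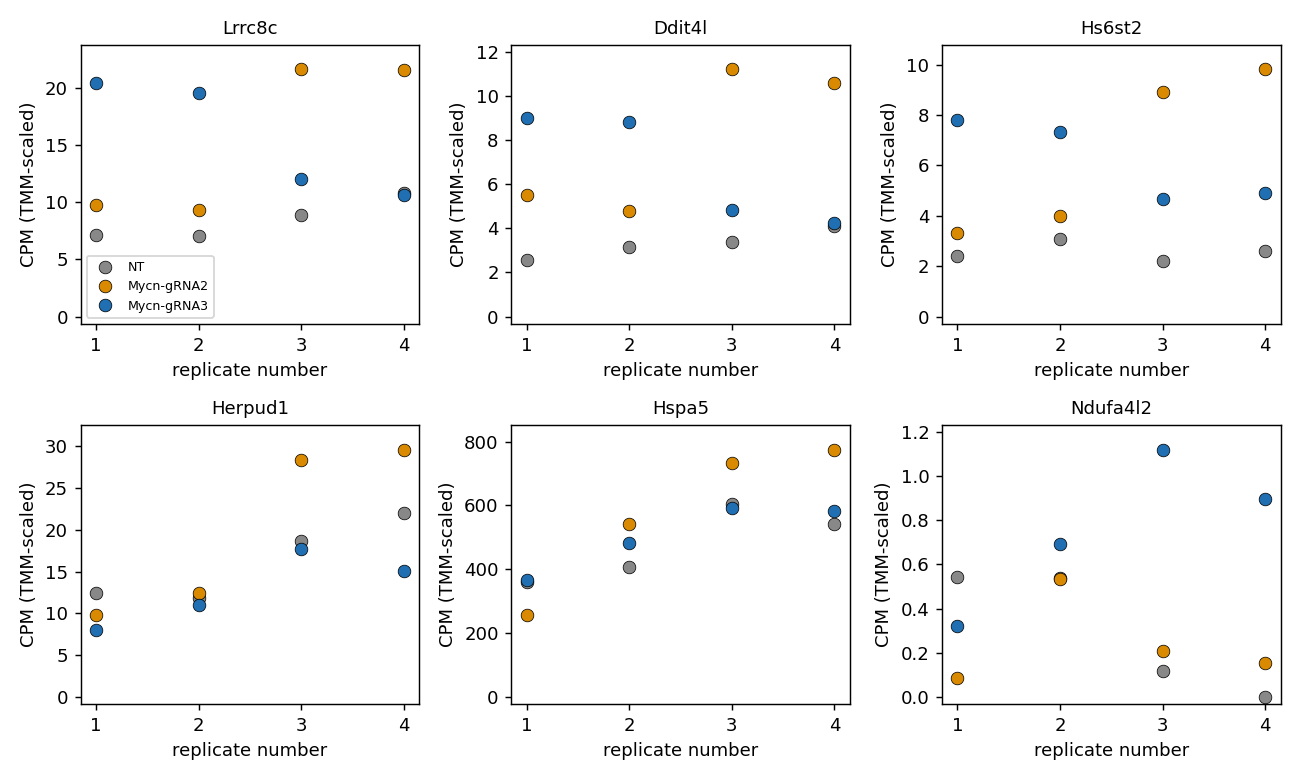
CPM of 6 genes by replicate number in each group (grey NT, orange Mycn-gRNA2, blue Mycn-gRNA3), 1 point per library. Lrrc8c, Ddit4l and Hs6st2 are high in replicates 3 and 4 with Mycn-gRNA2 and in replicates 1 and 2 with Mycn-gRNA3, while Herpud1 is high in Mycn-gRNA2 replicates 3 and 4 (28.3 and 29.6 CPM).

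Per ERCC read, the median over all genes was shifted by 0.17 toward Mycn-gRNA3, so differences on this scale include that shift. edgeR called 0 of 14383 genes (0.0% called), with 978 higher (6.8%) and 21 lower (0.146%) at an unadjusted p under 0.05 and a smallest adjusted p of 0.0591, that of Rhox5. With the block it called 2 (0.0139% called), Rhox5 and Ndufa4l2, both of which rose with Mycn-gRNA3. Rhox5 had a mean of 1.42 ± 0.323 reads per 1000 ERCC reads in the Mycn-gRNA2 libraries and 2.90 ± 0.42 in the Mycn-gRNA3 libraries (SD, n = 4 each), a log2 difference of 1.02 (SE 0.19, edgeR adjusted p = 0.0591 without and 0.0241 with the block). The count depended on Mycn-gRNA2 replicate 4, the library with the most endogenous reads per ERCC read (95.6). Without it 169 genes were called higher and 0 lower, and the median shift was 0.25. Without Mycn-gRNA2 replicate 2, which held the fewest (65.6), 0 were called and the shift was 0.07.

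Genes that differ from NT with the guides pooled give a check of size between the guides, with the caution that those comparisons share the NT libraries and the guide libraries compared here. NT also differs from the guides in Y-linked genes, so these differences cannot be told apart from a difference of culture. edgeR called 2156 of 14497 genes higher (14.9%) and 1878 lower (13.0%) with the 8 guide libraries than in NT. The 2156 higher genes had a median of 0.53 with Mycn-gRNA2 and 0.62 with Mycn-gRNA3, and a median Mycn-gRNA3 minus Mycn-gRNA2 difference of 0.07, with 132 higher and 9 lower at an unadjusted p under 0.05. With GC offsets that median was 0.02. Of the 1878 lower genes, 1852 were tested between the guides, with a median of -0.08 (-0.05 with GC offsets), 11 higher and 71 lower at an unadjusted p under 0.05. Beside both sets, 2.63% of all genes tested were higher and 2.04% lower at that p. Counts with GC offsets were not taken for these sets. edgeR called 0 genes of either set between the guides. Mycn itself stood 0.75 above NT with Mycn-gRNA2 and 0.97 above it with Mycn-gRNA3.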

How the data were processed

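PolyA RNA of 12 samples was sequenced, and 8 were compared here, in groups taken from the sample titles. The authors deposited a table of raw counts per gene (24421 genes and 92 ERCC RNAs). The submitters' processing notes name Trim Galore 0.4.0, featureCounts in Subread 1.5.0, edgeR 3.32.1 and the build mm10. No source used here gives the aligner, annotation or strand setting. A second deposited table holds log2 values for 12042 genes, each equal to log2(count + 0.5) minus a constant per library, and was used only in an alternative.

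Counts were tested with edgeR 4.0.16 in R 4.3.3 (robust quasi-likelihood F test, TMM factors over endogenous genes, filterByExpr on the 8 libraries, 14383 genes). A gene was called at a Benjamini-Hochberg adjusted p under 0.05. Levels per ERCC read used ERCC totals as library sizes. DESeq2 1.42.0 and voom of limma 3.58.1 were alternatives. GC content came from the longest transcript of each gene in GENCODE M21, known for 9166 of the 9487 genes with a mean log2 CPM above 3.

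Same-numbered libraries deviated together over those 9487 genes, with Pearson correlations of 0.411, 0.393, 0.639 and 0.17 in pairs 1 to 4, so the numbers were taken to pair the samples. Some libraries of different number correlated more than pair 4, namely Mycn-gRNA2 replicate 4 with Mycn-gRNA3 replicate 3 (0.473) and replicate 3 with replicate 4 (0.208). Pairs of replicates within a group differed by more than sampling noise, and none was treated as a copy.

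The text names Mycn, Myc and Alkbh5 and, since edgeR called no gene relative to the transcriptome, the 12 genes with the lowest unadjusted p each way in the fits without and with the block. Mycnos was not analysed here. Other genes were chosen after their values were seen. The genes, gene lists and comparisons were chosen with earlier results of these data known. Counting intervals cover counting error only.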

Additional observations from a re-analysis of the deposited data

Results flagged for a closer look

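Ddit4l and Lrrc8c differed between the guides in opposite directions in replicates 1 and 2 and in replicates 3 and 4. The guide difference in replicates 3 and 4 minus that in replicates 1 and 2 was -2.06 (log2, edgeR adjusted p = 0.0476) for Ddit4l and -2.0 (adjusted p = 0.0219) for Lrrc8c. That fit was chosen after seeing the data, so its p-values do not allow for this choice.

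In 11 of 184 groups of 4 library values, 1 library lay far from the other 3, by Dixon's criterion, which chance meets in about 1 of 20 groups. With Mycn-gRNA2, replicate 1 was high for Samd9l (34.4 CPM against 19.7 to 21.9) and Dnajb9 (32.0 against 17.6 to 19.9) and low for Pou5f1 (521 against 857 to 920). Replicate 2 was low for Mme (146 against 236 to 246), and replicate 4 was high for Myc (137 against 121 to 123). With Mycn-gRNA3, replicate 4 was low for Cmtr1 (3.32 CPM against 3.90 to 3.99) and Mfsd3 (3.80 against 4.74 to 4.92), and replicate 3 was high for 1700023F06Rik (1.27 against 0.874 to 0.898). Replicate 1 was low for Igf2bp2 (63.3 against 68.9 to 69.9). Replicate 2 was low for Dnajb9 (14.2 against 16.7 to 17) and Atf6 (64.7 against 69.4 to 70.3).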

How the results depend on the processing

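Relative to the transcriptome, the counts of 0 genes higher and 0 lower held with the replicate block, over 12 libraries, with DESeq2 size factors, other filters, limma-voom, GC offsets and without any 1 library or replicate number. The exceptions were DESeq2 (2 higher), leaving out replicate 1 with the replicate block (1 higher, Rhox5), replicates 3 and 4 alone (5 higher, 12 lower) and levels per ERCC read with the replicate block (2 higher). With 1 library left out, genes at an unadjusted p under 0.05 went from 274 without Mycn-gRNA3 replicate 2 to 1887 without Mycn-gRNA2 replicate 4. With a replicate number left out they went from 161 without replicate 3 to 2064 without replicate 4 with the replicate block. They numbered 372 with GC offsets. Per ERCC read, where 0 were called, the replicate block gave 2 higher, leaving out 1 library 0 to 169, and limma on the deposited log2 values 1, or 3 with the replicate block. No gene was called lower per ERCC read in any of these. Without Mycn-gRNA2 replicate 1 the called genes were Rhox5 and Ndrg1, and without Mycn-gRNA3 replicate 1 Ndufa4l2. The pairing changed no other call: Mycn stayed at 0.23 with the replicate block, and endogenous reads per ERCC read kept 0.149, with an exact sign-flip p of 0.375, where 4 pairs allow no less than 0.125.

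Of 89 results for single genes, 78 kept their sign under all alternatives run. Many of these genes were named for a low p or a call in these same libraries. The alternatives reuse those libraries, so a kept sign is partly built in. Myc (0.00684) had values of -0.0222 with the replicate block, -0.0147 with it over 12 libraries, -0.000571 with DESeq2 size factors, -0.000687 with DESeq2, -0.0229 with limma-voom, -0.0719 with GC offsets and -0.0995 with both GC offsets and block. It was -0.0375 without Mycn-gRNA2 replicates 1 and 2, -0.291 in replicates 1 and 2, -0.152 and -0.0708 with the block without replicate 3 and without replicate 4, and -0.127 to 0.118 with 1 library or number left out. Ndrg1 ranged from -0.0673 to 0.775 in the same way. Foxd3 was -0.0276 with GC offsets and -0.0191 with the block as well. On the deposited log2 values Mdm2 was 0.00572 and Trp53inp1 0.0364, each the same with the replicate block. Trp53inp1 was 0.0104 per ERCC read, 0.0217 with the block and 0.0278 with TMM factors over the ERCC RNAs, a scale shifted for all genes. Of the genes called in replicates 3 and 4, Ddit4l was 0.77, Lrrc8c 1.05, Cdh2 0.17, Hs6st2 1.04, Egln3 -0.129 and Hspa5 0.071 in replicates 1 and 2. The cause was not tested in any of these. Depth limits low genes: Ndufa4l2 rests on 20 and 88 reads and Rcsd1 on 25 and 66, in 4 libraries each.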
